A study of Danio rerio with 53 samples.

Results

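The 4 transcription factor genes pax5, bcl6ab, irf4b and xbp1, all regulators of the B lineage, were followed through sorted zebrafish lymphocytes. They were taken as the genes of the deposited count table whose Ensembl identifiers map to these symbols. Each of the 4 had a single entry, out of 14423 genes in all. The rule goes by name and uses no measured value. The identifiers are ENSDARG00000037383 for pax5, ENSDARG00000069295 for bcl6ab, ENSDARG00000055374 for irf4b and ENSDARG00000035622 for xbp1.

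The libraries came from cells sorted by fluorescence out of the lymphoid and precursor gates of dissected thymus and marrow, and QuantSeq counted the 3′ ends of their transcripts. The B populations were Early B-committed (3 libraries, early B below), B Stage I (6), B Stage II (6) and then B Stage III (3), all from marrow, and Thymic B (11), from thymus. The T populations were Early T-committed (6, early T below), from marrow, and T Stage I (6), T Stage II (6), T Stage III (3) and T Stage IV (3), from thymus. A set of 4 double reporter lines supplied the cells, and every library carried its line's pair of transgenes: rag2RFP-cd79aGFP, rag2RFP-cd79bGFP, lckmCherry-cd79aGFP or lckmCherry-cd79bGFP. Both rag2 lines gave early B, T Stage II and the first 2 B Stages, B Stage III came from rag2RFP-cd79bGFP and T Stage I from rag2RFP-cd79aGFP. Early T came from both lck lines, T Stage III and IV from lckmCherry-cd79aGFP, and Thymic B from all 4 lines. T Stage I joins 2 sorted populations that the labels name T2 and T3, and the label "T State III" was read as T Stage III. The reporters are driven by genes of antigen receptor recombination (rag2), the B cell receptor (cd79a, cd79b) and T cell signalling (lck), so the colours that define a population are themselves read out of lineage genes. The labels give no age, sex or treatment and do not say which libraries came from separate fish, so p-values measure the spread between these libraries.

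PAX5 is the factor that commits lymphoid precursors to the B lineage in mammals, where it turns on genes of the B cell receptor and represses genes of other lineages. In activated B cells of mammals, BCL6 is the repressor that maintains germinal centre cells, and IRF4 is needed for class switching and for plasma cell formation. XBP1 is the factor of the unfolded protein response that builds up the secretory apparatus of plasma cells. Teleost fish kept duplicates of several of these genes, and bcl6ab and irf4b each have a paralog, bcl6aa and irf4a, in the zebrafish genome.

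The 53 libraries held 7295854 to 18778603 counts each (median 11912824), with 3804 to 11360 genes detected. A count of 3 corresponds to between 0.16 and 0.411 CPM (counts scaled to a library total of 1000000), which is taken below as the limit that a count of 0 allows, for counting error only. Replicate libraries varied widely, with a Pearson r on log2(CPM + 1) of 0.516 to 0.843 over 50 pairs within groups. The sorted identities were checked on marker lists. The summed level of 11 B cell markers was 1326 to 13731 CPM in B libraries and 209 to 3617 CPM in T libraries, so the ranges overlapped. In T Stages II, III and IV 6, 7 and 8 of the 11 were at 0 in every library, in T Stage I and early T 2 each. A sum could rest on 1 marker, as in early T replicate 21 (2280 CPM, 1 of 11 above 0). The 11 include cd79a and cd79b, which drive the sorting reporters. The summed level of 14 T cell markers was 0 to 338 CPM in B libraries and 467 to 6684 CPM in T libraries. Early T libraries also held 801 to 1485 CPM of 8 NK-like cell markers and 585 to 2282 CPM of 14 myeloid markers. T Stages I to IV held at most 296 and 535 CPM of these. The 7 erythroid and thrombocyte markers summed to 1279 to 17357 CPM in early T and to 1.69 to 1701 CPM in T Stages I to IV. In sorted bulk samples fewer cells of a type and less RNA per cell cannot be told apart.

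pax5 separated the lineages. It was counted in 29 of 29 B libraries, at 36.3 to 426 CPM, and in 2 of 24 T libraries. Both of these were early T libraries of the lckmCherry-cd79aGFP line, replicate 55 with 82 counts (5.89 CPM) and replicate 56 with 4 counts (0.308 CPM). All 18 libraries of T Stages I to IV had no pax5 count. Within the B lineage the level was lowest in early B.

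In single libraries, pax5 was at 51.9, 102 and 36.3 CPM in early B. In B Stage I it was at 244 to 339 CPM (median 307), in B Stage II at 106 to 404 CPM (median 199) and in B Stage III at 110, 109 and 265 CPM. In Thymic B it was at 57 to 426 CPM with a median of 141. The order of the means was B Stage I (298 ± 38.5 CPM, SD, n = 6), B Stage II (213 ± 102, n = 6), Thymic B (177 ± 105, n = 11), B Stage III (161 ± 89.8, n = 3), early B (63.5 ± 34.5, n = 3) and early T (1.03 ± 2.38, n = 6). Neighbours in this order overlapped down to B Stage III with early B, whose libraries did not overlap, and early B and early T did not overlap either.

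**Figure D1:**
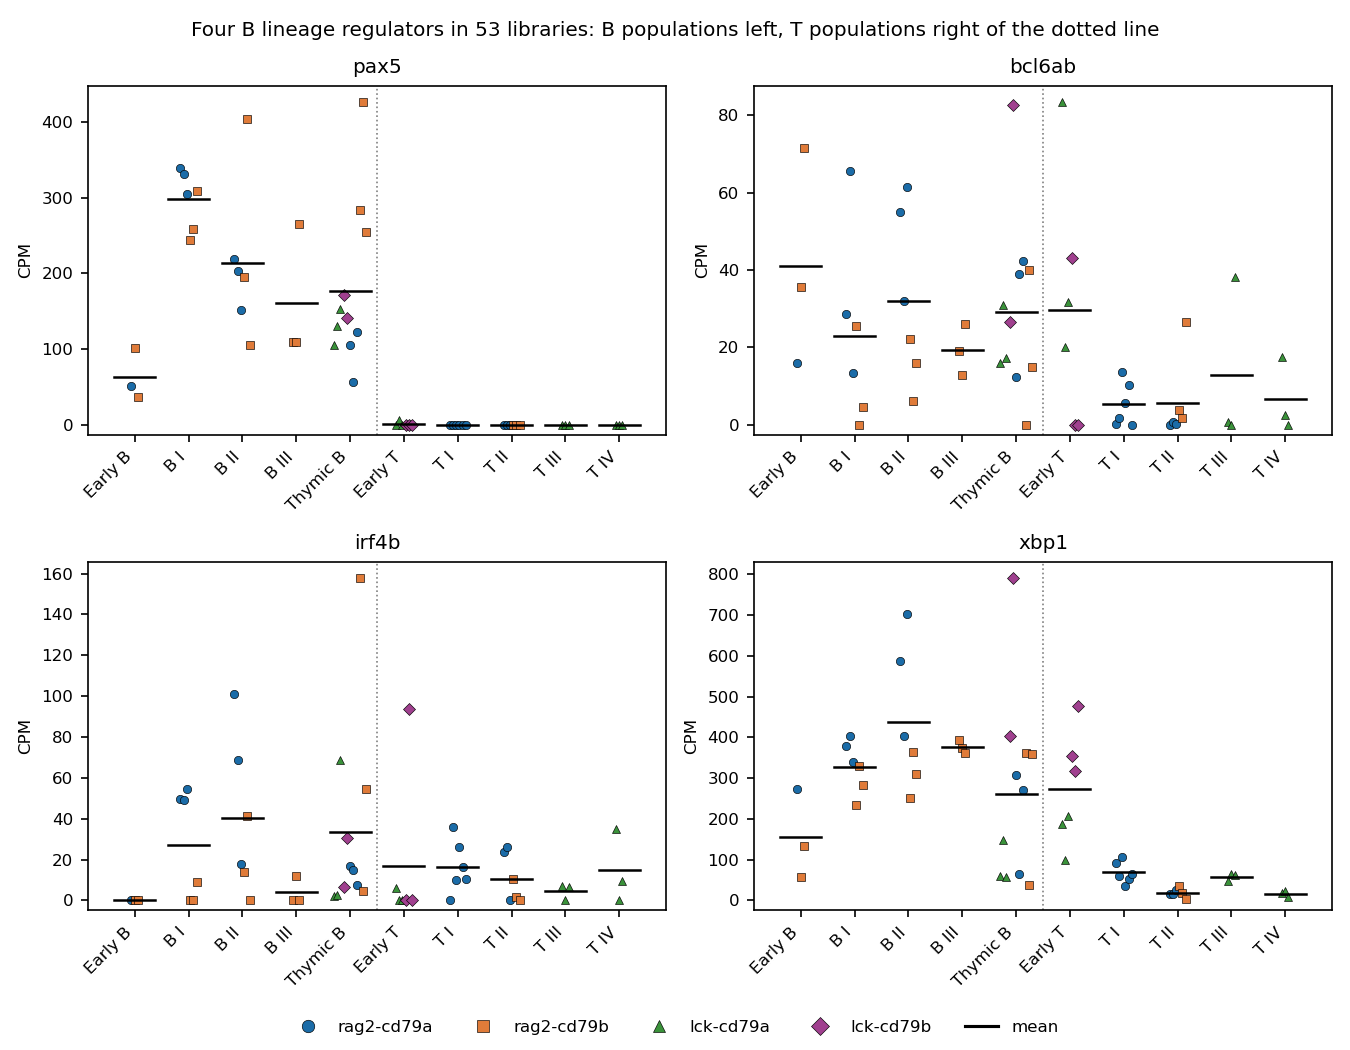
CPM of pax5, bcl6ab, irf4b and xbp1 (1 panel each) in every library, by sorted population on the x axis, with B populations left and T populations right of the dotted line. Points are libraries coloured by reporter line and bars are means. pax5 lies at 36.3 CPM or more in all 29 B libraries and at 5.89 CPM or less in all 24 T libraries, whereas libraries of bcl6ab and irf4b overlap between the lineages.

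Each B population was compared with the T population of the same line by edgeR's quasi-likelihood test, with p-values adjusted over all 14423 genes by the Benjamini-Hochberg method and called below 0.05. pax5 was higher in 9 of 9 such comparisons. For all genes the share called in either direction was 2.36% for early B against T Stage II, 5.84% for B Stage I, 7.6% for B Stage II and 4.7% for B Stage III against T Stage II. For Thymic B it was 9.98% against T Stage II, 5.53% against T Stage I, 1.67% against T Stage III, 2.12% against T Stage IV and 5.91% against early T. Because the T libraries were at 0, the fold is a lower bound, computed against 3 counts per T library. pax5 was at least 240-fold higher in early B than in T Stage II (adjusted p = 5.36e-08, edgeR) and at least 1126-fold higher in B Stage I (7.37e-19). The bound was 807-fold in B Stage II (1.71e-17), 531-fold in B Stage III (6.36e-08) and 787-fold in Thymic B (5.25e-16). The marrow populations also differ from T Stage II in tissue, which cannot be told apart from the cell type.

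The comparisons of Thymic B with T Stages I, III and IV lie within the thymus. In Thymic B the bound on pax5 was a 326-fold higher level than in T Stage I (adjusted p = 2.78e-11, edgeR), 587-fold over T Stage III (1.12e-07) and 617-fold over T Stage IV (3.81e-08). Against early T, Thymic B of the lckmCherry-cd79aGFP line averaged 129 CPM and early T 2.07 CPM, a 62.7-fold ratio of means (log2 fold change 6.23 ± 1.03 SE, adjusted p = 3.12e-06, edgeR). In lckmCherry-cd79bGFP, Thymic B averaged 156 CPM and all 3 early T libraries were at 0, a difference of at least 420-fold. The early T library with 5.89 CPM of pax5 also had 17.2 CPM of cd79a and 18 CPM of EBF1. Its 14 T cell markers summed to 467 CPM, the lowest of the 6 early T libraries (the others held 1391 to 2329 CPM), with 12 of 14 above 0, and its 11 B cell markers to 2066 CPM with 8 of 11 above 0. The other 5 held 1388 to 3617 CPM of the B cell markers, with 1 to 8 of 11 above 0. The part of other cells in its pax5 count was not tested.

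Between B populations pax5 changed in none of 6 comparisons at the 0.05 level. The share of all genes called was 1.05% for B Stage I against early B, 1.12% for B Stage II against B Stage I and 0.0277% for B Stage III against B Stage II. For Thymic B it was 6.03% against B Stage I, 1.32% against B Stage II and 1.07% against B Stage III. The step from early B to B Stage I was the largest: the 6 B Stage I libraries (244 to 339 CPM) lay above the 3 early B libraries (36.3 to 102 CPM). Its log2 fold change was 2.37 ± 0.73 SE with an adjusted p of 0.0925 (edgeR), and it passed with DESeq2 (log2 fold change 2.23, adjusted p = 0.0286). It also passed in a fit on the compared groups alone (2.43, 3.09e-05) and with a stricter filter on low counts (2.44, 0.0383), so the call rests on the settings. These were the only 3 of 16 alternatives that called it, with log2 fold changes of 2.00 to 2.94 over all 16. The rag2 lines had equal weight, and rag2RFP-cd79aGFP had 1 early B library. The median log2 fold change of all genes in this comparison was 1.07 (0.94 with median-ratio scaling). Of 20 kidney tubule markers 3 were higher and 1 lower in B Stage I, with sums of 374 to 2913 CPM in B Stage I and 177 to 591 CPM in early B. None of 7 erythroid and thrombocyte markers was called, with overlapping sums of 352 to 3100 CPM in B Stage I and 1920 to 9875 CPM in early B. The part of these in the result was not tested. Later steps were small: the log2 fold change was -0.40 ± 0.48 for B Stage II against B Stage I and -0.46 ± 0.68 for B Stage III against B Stage II. Thymic B differed by -0.78 ± 0.48 from B Stage I, by -0.38 ± 0.48 from B Stage II and by 0.73 ± 0.68 from B Stage III (log2, SE, adjusted p 0.387, 0.996 and 0.691, edgeR).

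Genes that PAX5 is known to control in mammals were read beside it. Of 12 such genes with an entry, 6 were higher in Thymic B than in T Stage II and none lower, and the median log2 fold change of the list was 4.75, against -0.99 for all genes. With genes at 0 on one side set to their bound, the list median stayed at 4.75. The called members were cd79a and cd79b (B cell receptor signalling chains), blnk (the adaptor of that receptor), cd37 (a tetraspanin of B cells), EBF1 (an early B lineage factor) and IRF8 (an interferon regulatory factor). cd79a and cd79b drove the reporters on which the cells were sorted, so their calls are fixed in part by the sort. The other 6 genes, among them BACH2, bach2a, IRF4 and irf4b, were not called. The same split was seen for B Stage I and B Stage II (6 higher, 0 lower each) and for Thymic B against T Stages I, III and IV (6 higher, 0 lower each). It was 5 higher in B Stage III against T Stage II and in Thymic B against early T, and 3 higher in early B against T Stage II, where the list median was 1.07. The share of all genes called against T Stage II was 9.98% for Thymic B and 2.36% for early B. For B Stages I, II and III it was 5.84%, 7.6% and 4.7%. Thymic B against T Stages I, III and IV and early T gave 5.53%, 1.67%, 2.12% and 5.91%.

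In early B, the members that were called were EBF1, blnk and cd79a. blnk averaged 457 CPM in B Stage I and 450 CPM in early B, EBF1 180 CPM in B Stage I and 330 CPM in early B, and cd37 309 CPM in B Stage I and 16.2 CPM in early B. cd37 was the single member of the list called between these B populations, higher in B Stage I (log2 fold change 9.28 ± 1.53 SE, adjusted p = 6.26e-06, edgeR). This fold averages the rag2 lines with equal weight, and rag2RFP-cd79aGFP had 1 early B library. It is therefore not the ratio of the cd37 means given here, which is far smaller. Between the later B populations none of the 12 was called. The share of all genes called was 1.05% for B Stage I against early B and 0.0277% to 6.03% for the later comparisons. The absence of calls there is not read as a result about the list.

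bcl6ab was present at low levels in most libraries of both lineages and no population stood apart. It was at 0 in 2 of 29 B libraries and 6 of 24 T libraries. The highest mean was in early B, at 41.1 ± 28.2 CPM (SD, n = 3), and the lowest in T Stage I, at 5.28 ± 5.66 CPM (n = 6). In single libraries bcl6ab was at 15.9, 35.7 and 71.5 CPM in early B. It was at 0 to 65.6 CPM (median 19.4) in B Stage I, 6.16 to 61.4 CPM (median 27) in B Stage II, 19, 12.9 and 26.1 CPM in B Stage III and 0 to 82.7 CPM (median 26.5) in Thymic B. Among T populations early T stood nearest to the B libraries, at 0 to 83.4 CPM (median 25.9). It was at 0 to 13.7 CPM in T Stage I (median 3.7) and 0 to 26.7 CPM in T Stage II (median 1.14). T Stage III held 0.688, 0 and 38.1 CPM and T Stage IV held 17.6, 2.67 and 0 CPM. In the order of the 10 means every pair of neighbours overlapped.

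Of the 9 comparisons with T populations, bcl6ab was called in 2, and the edgeR p was below 0.05 before adjustment in 5. It was higher in B Stage II than in T Stage II (32.1 ± 22 and 5.54 ± 10.5 CPM, SD, n = 6 each; log2 fold change 4.17 ± 1.26 SE, adjusted p = 0.0189, edgeR). It was also higher in Thymic B than in T Stage II (24.7 ± 17.9 and 5.54 ± 10.5 CPM, n = 6 each; 3.88 ± 1.32, adjusted p = 0.0392). Both calls were weak. The B Stage II call was lost without any of T Stage II replicates 1, 2, 24 or 26 or B Stage II replicate 13, with adjusted p from 0.05 to 0.0737. The Thymic B call was lost without any of T Stage II replicates 1, 2, 24, 25 or 26 or Thymic B replicates 5, 34 or 35 (0.0633 to 0.215). bcl6ab in T Stage II averaged 10.8 CPM in rag2RFP-cd79bGFP and 0.32 CPM in rag2RFP-cd79aGFP. Within rag2RFP-cd79bGFP the log2 fold changes were 0.80 (adjusted p = 0.915) and 0.77 (0.882, edgeR). Within rag2RFP-cd79aGFP they were 7.54 (0.0101) and 6.98 (0.0345). The 14 myeloid markers summed to 817 to 1674 CPM in B Stage II, 672 to 1387 CPM in Thymic B of these lines and 22.5 to 154 CPM in T Stage II. The 7 erythroid and thrombocyte markers summed to 399 to 2968, 130 to 541 and 1.69 to 153 CPM in the same order. The part of these in the bcl6ab calls was not tested.

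The remaining differences from T Stage II were 4.03 ± 1.55 in early B (adjusted p = 0.2), 3.55 ± 1.33 in B Stage I (0.109) and 1.07 ± 1.25 in B Stage III (0.766), all log2 with SE by edgeR. Thymic B differed by 2.85 ± 1.09 from T Stage I (0.112), and by 0.98, 2.16 and 0.76 from T Stage III, T Stage IV and early T, none of them called. Between B populations the 6 log2 fold changes of bcl6ab ran from -0.48 to 0.62 and none had a p below 0.05 before adjustment.

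The paralog bcl6aa, which the table's identifier lists under the name BCL6 (ENSDARG00000070864), had another pattern. It averaged 293 ± 110 CPM in early B (SD, n = 3), 201 ± 55.3 in B Stage I (n = 6), 339 ± 224 in B Stage II (n = 6) and 396 ± 167 in B Stage III (n = 3), but 91.4 ± 83.6 in Thymic B (n = 11). The T populations averaged 22.3 ± 28.2 CPM in early T (n = 6), 158 ± 65.9 in T Stage I (n = 6), 79.6 ± 29.1 in T Stage II (n = 6), 97.5 ± 60.1 in T Stage III (n = 3) and 181 ± 90 in T Stage IV (n = 3). BCL6 was higher in each of the 4 marrow B populations than in T Stage II. The log2 fold change was 2.09 ± 0.58 for early B (adjusted p = 0.0243), 1.55 ± 0.50 for B Stage I (0.0385), 2.35 ± 0.50 for B Stage II (0.000281) and 2.35 ± 0.71 for B Stage III (0.0308, edgeR). In Thymic B it fell below B Stage II (-2.40 ± 0.52, adjusted p = 0.00339) and below B Stage I (-1.60 ± 0.51, adjusted p = 0.0385, edgeR). The median of all genes was -0.73 against B Stage II and -1.28 against B Stage I. The B Stage I call was lost with median-ratio scaling (adjusted p = 0.06). Thymic B and the marrow stages also differ in tissue, which cannot be told apart from the population. The 20 kidney tubule markers summed to 15.7 to 314 CPM in Thymic B, 107 to 420 CPM in B Stage II and 374 to 2913 CPM in B Stage I. Of them 2 were lower in Thymic B than in B Stage II and 12 lower than in B Stage I, while 1.32% and 6.03% of all genes were called. The part of these markers was not tested. Thymic B was not called against T Stage II (-0.05 ± 0.51) and was higher than early T (3.38 ± 0.66, adjusted p = 9.82e-05, edgeR). Reads of a paralog pair that is similar at the 3′ end could be assigned to either copy, and the handling of such reads is not given in the sources used here.

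**Figure D2:**
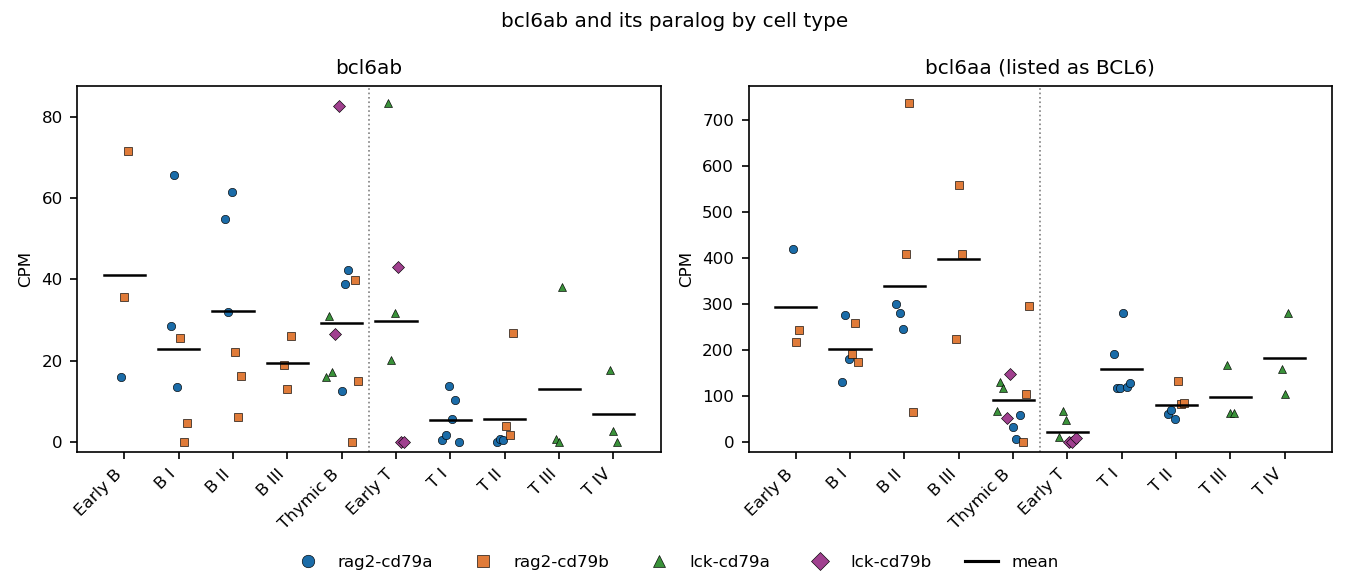
CPM of bcl6ab and of its paralog bcl6aa (listed as BCL6) in every library, by sorted population, coloured by reporter line, with bars at the means. bcl6aa averages 201 to 396 CPM in the 4 marrow B populations and 91.4 CPM in Thymic B, while bcl6ab averages 19.3 to 41.1 CPM in the same 5 populations.

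Of 12 genes of the BCL6 and interferon regulatory factor families with an entry, 4 were higher in B Stage II than in T Stage II and none lower (median log2 fold change 1.51, against -0.02 for all genes). In this comparison 7.6% of all genes were called. Besides bcl6ab and BCL6 the 4 were IRF8 (6.24 ± 0.93 SE, adjusted p = 1.51e-08) and IRF5 (4.86 ± 0.93, adjusted p = 2.03e-05, edgeR), factors of myeloid and B cell programmes. Of 14 myeloid markers 3 were higher in B Stage II, and the 14 summed to 817 to 1674 CPM in B Stage II and 22.5 to 154 CPM in T Stage II. MPEG1 alone averaged 368 CPM in B Stage II and 15.1 CPM in T Stage II. The part of the myeloid markers was not tested. In the other B populations 1 (early B) to 3 members were higher than in T Stage II and none lower. Of all genes 2.36% were called for early B and 4.7% to 9.98% for the others. The early B count is not read as a result about the list.

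irf4b was scattered. It was counted in 22 of 29 B libraries and 16 of 24 T libraries, and libraries of the same population differed widely. All 3 early B libraries were at 0, which allows up to 0.31, 0.264 and 0.252 CPM for counting error only. The spread between libraries was wider, with counts of 0 beside well-counted replicates of the same group, as in B Stage II of rag2RFP-cd79bGFP below. In B Stage I the 3 rag2RFP-cd79bGFP libraries held 0, 0.167 and 8.93 CPM and the 3 rag2RFP-cd79aGFP libraries 49.6, 49.2 and 54.5 CPM, with no overlap, a difference that was not tested. In B Stage II it was at 0 to 101 CPM (median 29.4), with 14, 41.1 and 0 CPM in rag2RFP-cd79bGFP and 101, 68.5 and 17.7 CPM in rag2RFP-cd79aGFP, which overlapped. B Stage III held 0, 11.9 and 0 CPM. In Thymic B every library had a count, from 2.08 to 158 CPM with a median of 14.7.

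The T populations were in the same range, so the lineages overlapped. irf4b was at 0 to 93.6 CPM in early T (median 0), 0 to 35.9 CPM in T Stage I (median 13.3) and 0 to 26.3 CPM in T Stage II (median 6.09). T Stage III held 7.03, 0 and 6.66 CPM and T Stage IV 35.1, 0 and 9.39 CPM. The order of the means was B Stage II (40.3 ± 38.1 CPM, SD, n = 6), Thymic B (33.3 ± 46.9, n = 11), B Stage I (27.1 ± 26.6, n = 6), early T, T Stage I, T Stage IV, T Stage II, T Stage III, B Stage III (3.96 ± 6.87, n = 3) and early B, and neighbours overlapped throughout.

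irf4b was called in none of the 9 comparisons with T populations by edgeR. Its p was below 0.05 before adjustment in 2, and DESeq2 called 1. That was early B, where irf4b was at 0 against 10.4 ± 12 CPM in T Stage II (SD, n = 6), with overlap. With early B set at the counting limit it was 37.7-fold lower by the means (adjusted p = 0.545, edgeR, and 1.95e-17, DESeq2). This fold allows for counting error only, not for the spread between libraries. The highest log2 fold changes were 2.36 ± 0.96 SE in B Stage II (adjusted p = 0.132) and 2.09 ± 0.99 in Thymic B (0.19), both against T Stage II, and 2.64 ± 1.36 in Thymic B against T Stage III (0.433, edgeR). Against T Stage I the Thymic B value was -0.02. Between B populations no comparison was called by edgeR. With early B set at the counting limit, B Stage I was 98.2-fold higher by the means (27.1 ± 26.6 CPM, SD, n = 6, and 0 in 3 of 3 libraries), with overlap. This fold too allows for counting error only. It rests on B Stage I of rag2RFP-cd79aGFP (49.6, 49.2 and 54.5 CPM), a line with 1 early B library. B Stage I of rag2RFP-cd79bGFP held 0, 0.167 and 8.93 CPM. The difference of B Stage I from early B passed with DESeq2 (adjusted p = 1.76e-18) and not with edgeR (adjusted p = 0.474). Thymic B of rag2RFP-cd79bGFP (158, 4.49 and 54.5 CPM) was above B Stage III of that line (0, 11.9 and 0 CPM) by 3.83 ± 1.39 (log2, SE, adjusted p = 0.127, edgeR), with overlap.

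The paralog irf4a, listed as IRF4 (ENSDARG00000006560), was rarer still. It was at 0 in all early B, T Stage III and T Stage IV libraries and in 6 of 11 Thymic B libraries, and its highest mean was 10.7 ± 22.3 CPM in Thymic B (SD, n = 11), of which 1 library held 73.7 CPM. It was not called in any comparison discussed here.

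xbp1 was the member counted in all 53 libraries. Its median was 329 CPM over B libraries (38.2 to 792) and 56.4 CPM over T libraries (3.12 to 477). Its mean in early T lay between those of the B populations, and its means in the 4 thymic T stages lay below all of them. In single libraries xbp1 was at 274, 56.7 and 134 CPM in early B, 233 to 403 CPM (median 334) in B Stage I, 251 to 703 CPM (median 384) in B Stage II and 394, 375 and 362 CPM in B Stage III. Thymic B ranged from 38.2 to 792 CPM with a median of 272. Early T held 99.4 to 477 CPM (median 262), T Stage I 34.4 to 107 CPM (median 62.3), T Stage II 3.12 to 34.8 CPM (median 16.5), T Stage III 48.1, 63.5 and 62.6 CPM, and T Stage IV 18.5, 21.9 and 8.84 CPM.

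The order of the means was B Stage II (436 ± 174 CPM, SD, n = 6), B Stage III (377 ± 16.1, n = 3), B Stage I (328 ± 62.2, n = 6), early T (274 ± 135, n = 6), Thymic B (260 ± 225, n = 11), early B (155 ± 110, n = 3), T Stage I (68.6 ± 26.5, n = 6), T Stage III (58.1 ± 8.66, n = 3), T Stage II (18.9 ± 10.8, n = 6) and T Stage IV (16.4 ± 6.77, n = 3). T Stage III and T Stage II were the pair of neighbours whose libraries did not overlap.

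xbp1 was higher in 7 of the 9 comparisons with T populations. Against T Stage II no library overlapped with any B population of the same lines. The log2 fold change was 3.16 ± 0.54 SE in early B (adjusted p = 5.15e-06), 4.28 ± 0.49 in B Stage I (1.58e-13), 4.72 ± 0.50 in B Stage II (1.21e-15), 4.73 ± 0.71 in B Stage III (7.62e-08) and 3.75 ± 0.49 in Thymic B (7.4e-11, edgeR). The sum of 14 myeloid markers was 312 to 1695 CPM over the marrow B libraries and 524 to 1453 CPM in Thymic B, against 22.5 to 154 CPM in T Stage II. Single libraries held 2 to 6 of the 14 above 0 in Thymic B, 5 to 11 in marrow B and 2 to 8 in T Stage II. MPEG1 alone averaged 476 CPM in Thymic B and 15.1 CPM in T Stage II. Of the 14, 2 were called higher in early B, 5 in B Stage I, 3 in B Stage II, 2 in B Stage III and 2 in Thymic B. Of 20 kidney tubule markers 2, 14, 4, 8 and 1 were called higher in the same 5 populations. The 7 erythroid and thrombocyte markers summed to 352 to 9875 CPM in marrow B and 130 to 541 CPM in Thymic B of the rag2 lines. In T Stage II they summed to 1.69 to 153 CPM. Of these 7, 2, 3, 3, 2 and 1 were called higher in the same 5 populations. The shares of all genes called in either direction were 2.36%, 5.84%, 7.6%, 4.7% and 9.98% in the same order. The part of these markers in the xbp1 level was not tested. Within the thymus, xbp1 was higher in Thymic B than in T Stage I (214 ± 131 CPM, n = 3, and 68.6 ± 26.5, n = 6; 1.92 ± 0.50, adjusted p = 0.00578, edgeR), with overlapping libraries. That call was lost without Thymic B replicate 33 (adjusted p = 0.058) or 35 (0.0941, edgeR). It was higher in Thymic B than in T Stage IV (87.4 ± 51.5 and 16.4 ± 6.77 CPM, n = 3 each; 2.72 ± 0.67, adjusted p = 0.00578, edgeR), with no overlap, and this call was lost without T Stage IV replicate 50 (0.0662) or Thymic B replicate 52 (0.113). Thymic B did not pass against T Stage III (87.4 ± 51.5 and 58.1 ± 8.66 CPM, n = 3 each; 0.80 ± 0.61, adjusted p = 0.664, edgeR). Against early T the log2 fold change was 0.15 ± 0.43 with an adjusted p of 1 (edgeR). Early T libraries differed from the thymic T stages in their NK-like, myeloid and erythroid marker levels and in tissue, as given above, and the part of these in the xbp1 level was not tested.

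Between B populations xbp1 was not called. B Stage I was above early B by 1.12 ± 0.56 (adjusted p = 0.537), B Stage II above B Stage I by 0.44 ± 0.41 (0.9) and B Stage III above B Stage II by 0.32 ± 0.57 (1). Thymic B was below B Stage I by a log2 fold change of -0.52 ± 0.41 (0.543), B Stage II by -0.97 ± 0.41 (0.23) and B Stage III by -0.88 ± 0.58 (0.455, log2, SE, edgeR). The Thymic B libraries were themselves spread: the lckmCherry-cd79bGFP line held 404 and 792 CPM, lckmCherry-cd79aGFP 58.8, 147 and 56.6, rag2RFP-cd79bGFP 362, 38.2 and 360, and rag2RFP-cd79aGFP 307, 63.8 and 272 CPM.

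**Figure D3:**
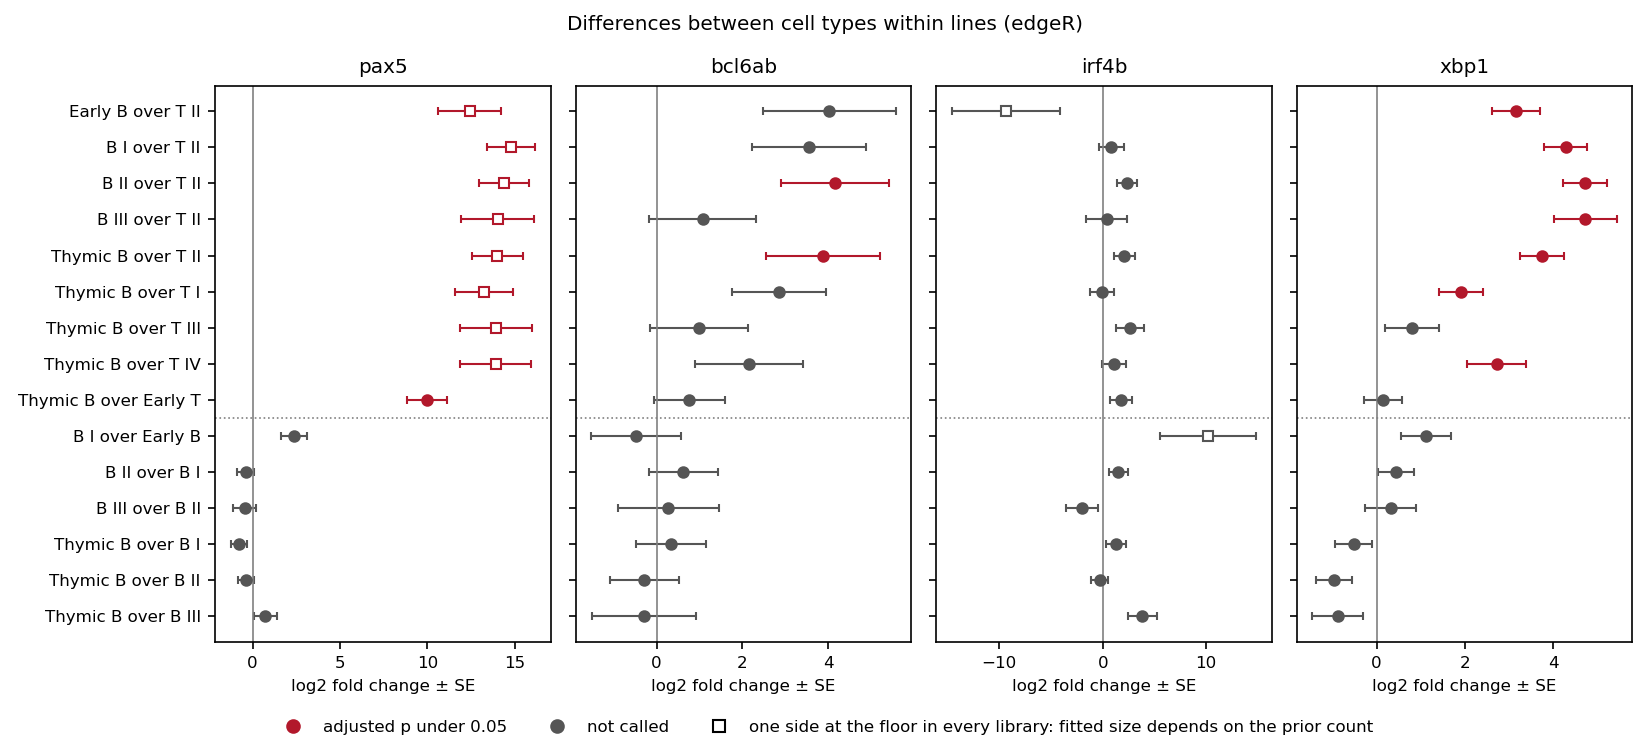
Log2 fold change with SE (edgeR) of the 4 genes in 9 comparisons of B with T populations, above the dotted line, and 6 between B populations, below it. Red marks an adjusted p below 0.05 and open squares mark folds with one side at the counting limit. pax5 is called in all 9 upper comparisons, xbp1 in 7, bcl6ab in 2 and irf4b in none, and no gene is called in the lower ones.

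Genes of the unfolded protein response and of the secretory pathway, including known XBP1 targets, were for the most part not called beside xbp1. Of 55 with an entry, 3 were higher in B Stage I than in T Stage II, 3 in B Stage II, 4 in B Stage III and none in early B, with no member lower. The shares of all genes called were 5.84%, 7.6%, 4.7% and 2.36% in these comparisons, and the counts are not read as a result about the list. The list medians were 0.61, 0.21, 0.58 and -0.18 (log2), against 0.08, -0.02, -0.07 and -0.79 for all genes. With genes at 0 on one side set to their bound they were 0.61, 0.21, 0.61 and -0.33. HERPUD1, a factor of degradation at the endoplasmic reticulum, was higher by 2.05 ± 0.58 SE in B Stage I (adjusted p = 0.012), 2.40 ± 0.58 in B Stage II (0.0016) and 2.98 ± 0.85 in B Stage III (0.0174, edgeR). SEC61G, a subunit of the translocon, was higher by 1.15 ± 0.35 (0.0265), 1.36 ± 0.35 (0.00402) and 1.76 ± 0.50 (0.0193). HSP90B1, an endoplasmic reticulum chaperone, was higher in B Stage I (1.13 ± 0.37, adjusted p = 0.0424) and B Stage III (1.98 ± 0.53, 0.00969), P4HB, a protein disulfide isomerase, in B Stage II (1.46 ± 0.47, 0.0342) and calr3a, a calreticulin, in B Stage III (2.24 ± 0.72, 0.0447, edgeR).

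In Thymic B against T Stage II, SEC61G (2.17 ± 0.36, adjusted p = 9.06e-07) and HERPUD1 (2.12 ± 0.59, 0.00727) were higher. ern2, a paralog of the kinase that splices xbp1, was lower, at 3 counts or fewer in every Thymic B library of these lines and at least 50.7-fold lower by the means (0.0436, edgeR). The list median was 0.08, against -0.99 for all genes, and with median-ratio scaling the counts were 5 higher and 0 lower. The share of all genes called was 9.98%. Against T Stage I 5 members were higher, led by DERL2 (3.47, adjusted p = 0.0369) and SEC61G (2.75 ± 0.41, 5.47e-08), and 9 with median-ratio scaling, while 5.53% of all genes were called. The counts against T Stages I and II are not read as a result about the list. Against T Stage III and T Stage IV no member was called, while 1.67% and 2.12% of all genes were called. The absence of calls is likewise not read as a result about the list. Against early T, where xbp1 itself was not called, MANF (6.57 ± 1.99, 0.0251), HSP90B1 (2.27 ± 0.40, 4.33e-06) and HERPUD1 (1.89 ± 0.58, 0.0271, edgeR) were higher, 3 of 55 members, while 5.91% of all genes were called. Between B populations the list gave 1 call in 6 comparisons, DAD1, lower in Thymic B than in B Stage I (-1.45 ± 0.45, adjusted p = 0.0317, edgeR), where the median of all genes was -1.28 and 6.03% of all genes were called, and with median-ratio scaling 1 member was higher there and none lower. The counts are of spliced and unspliced xbp1 together, since 3′-end counting does not separate them.

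**Figure D4:**
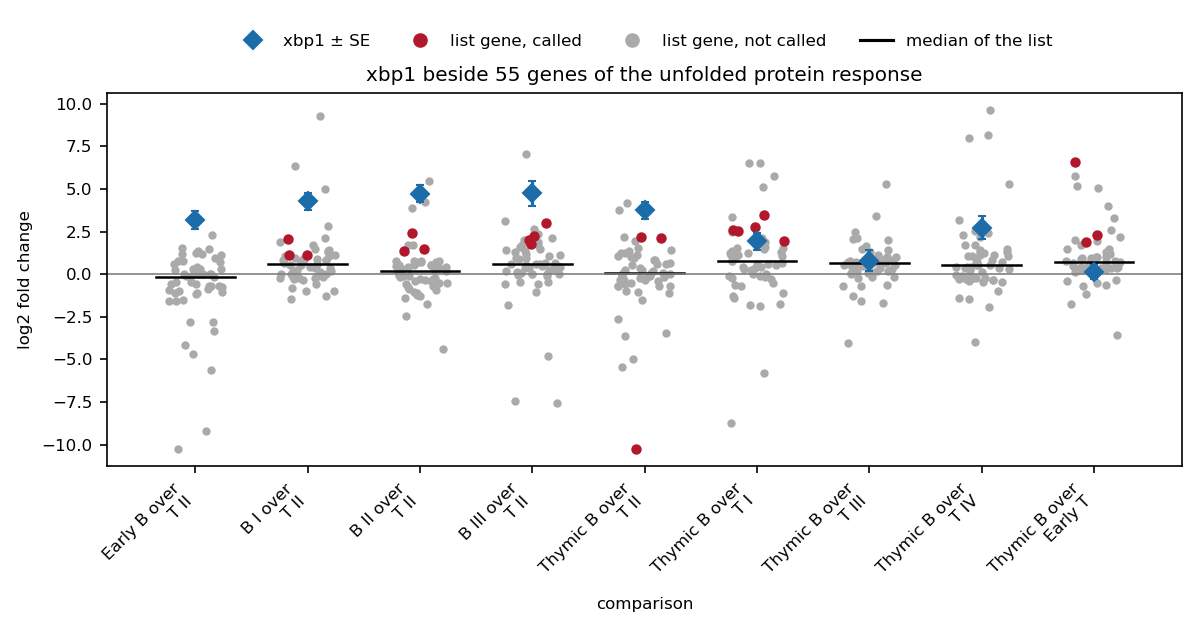
Log2 fold change of xbp1 with SE, beside the 55 genes of the unfolded protein response and XBP1 target list and their median, in the 9 comparisons of B with T populations (edgeR). xbp1 lies between 3.16 and 4.73 against T Stage II, while the list median lies between -0.18 and 0.61 and that of all genes between -0.99 and 0.08. In Thymic B against T Stages I, III and IV and early T, xbp1 is at 1.92, 0.80, 2.72 and 0.15. The list medians there are 0.78, 0.68, 0.53 and 0.69. The median of all genes is -0.44 against T Stage I and 0.00 against the others.

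Other factors of the B lineage were read from a list of 31 genes with an entry, which includes the 4 described above. In Thymic B against T Stage II 9 were higher and 2 lower (median 0.82, against -0.99 for all genes), or 9 and 1 with median-ratio scaling. Besides pax5, bcl6ab and xbp1, the higher ones included EBF1 (at least 610-fold, adjusted p = 7.98e-13), BCL11A (1.83e-05), pou2f2b, an octamer-binding factor (7.49 ± 0.73, 4.08e-18), and SPI1, a factor of myeloid and B cells (7.48 ± 0.82, 3.92e-10). MYB, a factor of precursors, was lower (-6.26 ± 0.86, adjusted p = 1.23e-09, edgeR). In the marrow the counts against T Stage II were 6 higher and 0 lower in early B (list median -0.78, also with genes at 0 on one side at their bound, against -0.79 for all genes), 9 and 2 in B Stage I, 10 and 3 in B Stage II and 9 and 2 in B Stage III. Against T Stages I, III and IV and early T, Thymic B had 9, 7, 7 and 8 members higher and 3, 0, 1 and 1 lower. With median-ratio scaling these became 9, 6, 7 and 8 higher and 2, 0, 1 and 2 lower. The share of all genes called was 9.98% for Thymic B against T Stage II. It was 2.36%, 5.84%, 7.6% and 4.7% for early B and B Stages I, II and III against T Stage II. For Thymic B against T Stages I, III and IV and early T it was 5.53%, 1.67%, 2.12% and 5.91%.

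Between B populations, 1 of 31 regulators was higher in B Stage I than in early B. In B Stage II 1 was lower than in B Stage I. In Thymic B 2 were lower than in B Stage I (1 higher and 1 lower with median-ratio scaling) and 1 was lower than in B Stage II. None was called in B Stage III against B Stage II or in Thymic B against B Stage III. The shares of all genes called were 1.05%, 1.12%, 6.03%, 1.32%, 0.0277% and 1.07% in this order. The counts are not read as a result about the list. pou2f2b was higher in B Stage I than in early B (300 and 28.3 CPM by the means; 4.99 ± 0.94, adjusted p = 0.000154, edgeR). The pou2f2b fold averages the rag2 lines with equal weight and is larger than the ratio of these means. MYB was lower in B Stage II than in B Stage I (5.71 and 42 CPM; -2.88 ± 0.74, 0.0169) and lower in Thymic B than in B Stage I (-3.92 ± 0.96, 0.00326, edgeR). Early B, with a mean of 227 CPM of MYB, was the B population nearest to T Stage I (333 CPM) and T Stage II (238 CPM).

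Further regulators varied in how far they separated the lineages. PRDM1, the plasma cell repressor, was at 0 in early B and had a count in 1 of 6 B Stage I, 1 of 6 B Stage II, 1 of 3 B Stage III and 3 of 11 Thymic B libraries, at up to 59.4 CPM. EBF1 averaged 330, 180, 205, 126 and 124 CPM in early B, B Stages I, II and III and Thymic B, against 0 to 6.97 CPM in the T populations. BACH2, the repressor of plasma cell formation, averaged 50.2 to 100 CPM in B populations and 16.2 to 200 CPM in T populations, and bach2a 0.307 to 29 CPM against 0 to 4.3 CPM. POU2F2 averaged at most 0.323 CPM in B populations and 18.9 CPM in early T. bcl6b and pou2af1 were not analysed here.

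**Figure D5:**
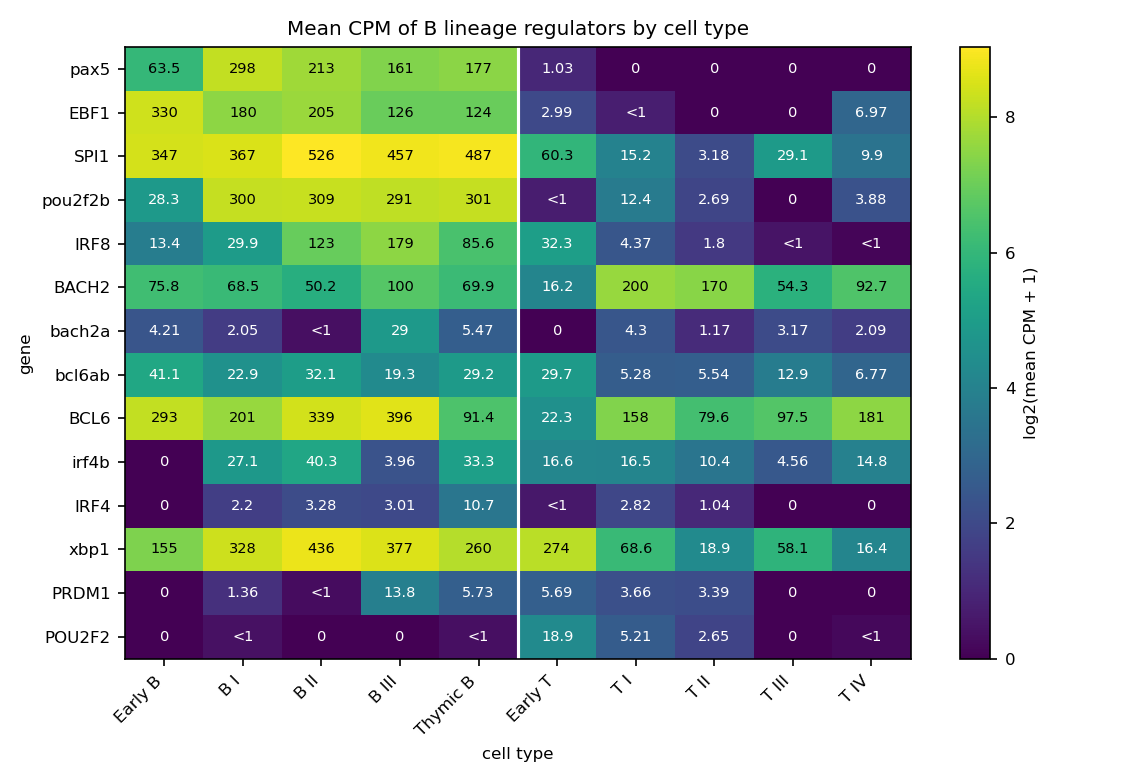
Heat map of the mean level, as log2(mean CPM + 1), of 14 lineage regulators in the 10 sorted populations, B populations left of T populations. pax5 and EBF1 are high in B and low in T populations, and pou2f2b is lower in early B than in B Stage I. The means of PRDM1 and IRF4 are at most 13.8 CPM.

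Within Thymic B the reporter lines could be compared. None of the 4 genes was called between the lck and rag2 lines or between the cd79b and cd79a lines. The share of all genes called was 0.52% and 0.79%. Between the lck and rag2 lines the log2 fold changes were -0.18 for pax5, 0.61 for bcl6ab, -0.33 for irf4b and 0.13 for xbp1. Between the cd79b and cd79a lines they were 0.66 ± 0.513 SE for pax5 (adjusted p = 0.765), -0.03 for bcl6ab, 0.70 for irf4b and 1.19 ± 0.434 for xbp1 (0.15, edgeR). The xbp1 value passed with DESeq2 (1.41, adjusted p = 0.00731). Line and any processing day cannot be told apart.

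Interaction terms tested whether a difference between populations depended on the rag2 line. Of 15 such values for the 4 genes, none was called by edgeR, 4 had a p below 0.05 before adjustment and DESeq2 called none. The share of all genes called was 0.0139% for B Stage II against B Stage I, 0.0208% for Thymic B against B Stage I, 0.0763% for Thymic B against B Stage II and 0.0208% for Thymic B against T Stage II. The largest were for irf4b, where the difference of Thymic B from B Stage I was greater in rag2RFP-cd79bGFP than in rag2RFP-cd79aGFP by 6.23 ± 1.86 (log2, SE, adjusted p = 0.216), and for bcl6ab, where that of Thymic B from T Stage II differed by -6.21 ± 2.79 (0.524, edgeR). For pax5 the term with T Stage II was left out of the 15 as uninformative (SE 3.71e+04, log2), since T Stage II was at 0 in both lines.

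Genes with the most similar levels over the 53 libraries were ranked by Pearson r on log2(CPM + 1) among 9147 named genes, as a description. The libraries share depth differences, and the contrast between B and T libraries runs through all of these values. For pax5 they were ighd (0.975), blnk (0.974), igic1s1 (0.971), igl3c3 (0.963) and cd79a (0.958). For xbp1 they were SYK (0.829), susd1 (0.771), hdac9b (0.771), MEF2C (ENSDARG00000009418, 0.755) and S1PR4 (0.736). For bcl6ab the highest values were lower, with LYN (0.590), gig2d (0.589), ctss2.2 (0.583), STX11 (0.571) and ptprja (0.568). For irf4b they were BTG2 (0.565), ier2a (0.558), FOS (0.544), EGR3 (0.533) and klf13 (0.505). With a pseudocount of 5 in place of 1, 4 of the 5 genes were shared for pax5, 2 for bcl6ab, 4 for irf4b and 5 for xbp1.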

How the data were processed

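The deposited table holds raw counts per Ensembl gene for 53 libraries, with no normalization by the authors. Per the submitters' processing notes, FastQC 0.11.8, STAR, featureCounts and DESeq2 1.38.3 were used with the GRCz11 build, and the settings for strand and for reads that match several genes are not given in the sources used here. No entry had fewer than 3 libraries with 10 counts or more. The reporter entry gfp was left out of the fits and of the library sizes used in them, which left 14423 genes, 13909 of them with a symbol. It was kept in the library totals, the detected genes and the CPM given here.

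CPM are counts scaled to a library total of 1000000, not scaled by length, so levels were not compared between genes. Differences were fitted with edgeR 4.0.16 (R 4.3.3): TMM scaling, 1 mean for each of 19 groups of line and population over all libraries, robust quasi-likelihood, contrasts averaged over lines present on both sides, and Benjamini-Hochberg adjustment over all genes. No 2 replicates agreed within sampling noise (chi-square per degree of freedom 128 to 599). Alternatives were DESeq2 1.42.0, median-ratio scaling, other filters, fits on the compared groups or on single lines, and each library left out.

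The 4 genes and 10 gene lists were chosen with earlier results of these data known. List symbols were matched to the table by name, then by paralog letter and RefSeq synonym, which found 169 genes. An item is not reported here. Named list members are up to 6 with the largest fold change among those called, and likeness was ranked among named genes averaging at least 10 CPM in a population. Summed levels of the 6 marker lists are given beside some of the results, not beside every one.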

Additional observations from a re-analysis of the deposited data

Results flagged for a closer look

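Of 18 sets of 4 to 10 libraries of 1 gene in 1 population, 3 held a library far from the others. The rule's chance rate of about 1 in 20 assumes values without strong skew, and the 3 sets lie mostly at or near 0. The count is therefore not read as an excess. pax5 was at 5.89 CPM in early T replicate 55 of the lckmCherry-cd79aGFP line, against 0 to 0.308 CPM in the other 5 early T libraries. Thymic B minus early T was 11.86 (log2) without it, against 9.98 with it. bcl6ab was at 26.7 CPM in T Stage II replicate 3 of the rag2RFP-cd79bGFP line, against 0 to 3.87 CPM in the other 5 T Stage II libraries. irf4b was at 93.6 CPM in early T replicate 22 of the lckmCherry-cd79bGFP line, against 0 to 6.03 CPM in the other 5. Without that library Thymic B was above early T in irf4b by 7.29 (log2, adjusted p = 0.0417, edgeR), and with it by 1.74, which was not called. The other early T libraries of that line were at 0 for irf4b, so the size of 7.29 has no upper limit. That library was picked by its value, which the adjusted p without it does not allow for.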

How the results depend on the processing

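The 9 pax5 calls of B over T populations and the 5 xbp1 calls over T Stage II passed under every alternative run. No paired analysis was possible because the labels number the samples uniquely, so groups share no replicate number. Fits on the compared groups alone gave a call for pax5 in B Stage I over early B (2.43), for bcl6ab in B Stage I over T Stage II (3.61, adjusted p = 0.0191, edgeR) and for irf4b in B Stage II over T Stage II (2.35, 0.0359). They took away that of bcl6ab in Thymic B over T Stage II (3.85, 0.0652). For bcl6ab between cd79b and cd79a lines they gave a log2 fold change of 0.0026, against -0.03 in the fit over all libraries, neither called. The stricter filter gave 2.44 for pax5 in B Stage I over early B. DESeq2 gave 2.23 there, 23.35 for irf4b in B Stage I over early B, -22.49 for irf4b in early B over T Stage II and 1.41 for xbp1 between cd79b and cd79a lines, all called. irf4b was at 0 in all 3 early B libraries, so these irf4b values have no upper limit and are not read as sizes. With early B at the counting limit the differences were 98.2-fold and 37.7-fold by the means. The cause of the differences between settings was not tested.

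Values of single lines turned in sign or call as follows. In rag2RFP-cd79aGFP bcl6ab gave 1.299 in B Stage I over early B, -0.044 in Thymic B over B Stage I and 7.03 in B Stage I over T Stage II (called), and irf4b gave -1.87 in Thymic B over B Stage I and -0.0495 over T Stage II. In rag2RFP-cd79bGFP pax5 gave 0.0756 in Thymic B over B Stage I and 0.27 over B Stage II, irf4b 1.82 in Thymic B over B Stage II and -0.13 in B Stage I over T Stage II, and bcl6ab 0.80 and 0.77 in B Stage II and Thymic B over T Stage II, neither called. In Thymic B over early T the lckmCherry-cd79aGFP line gave -0.78 for bcl6ab and -0.64 for xbp1, and lckmCherry-cd79bGFP -0.36 for irf4b. Under median-ratio scaling and DESeq2 uncalled values changed sign: irf4b over T Stage I 0.0339 and 0.0239, xbp1 over early T -0.0857 and -0.0856, xbp1 between lck and rag2 lines -0.0506 and -0.04985, and bcl6ab between cd79b and cd79a lines 0.19 and 0.20.

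Leaving out 1 library moved values as follows (lowest to highest log2 fold change). For bcl6ab: -0.11 to 0.71 in B Stage III over B Stage II, -0.31 to 1.29 in Thymic B over B Stage I, -1.58 to 0.34 over B Stage III, 3.24 to 4.88 over T Stage II and -0.67 to 0.32 between cd79b and cd79a lines. Over T Stage II it gave 3.70 to 5.075 in early B (called without early B replicate 36, 4.96, adjusted p = 0.0148, edgeR), 2.56 to 4.60 in B Stage I (called without T Stage II replicate 3, 4.596, 0.0473) and 3.78 to 5.15 in B Stage II. For irf4b in Thymic B: -0.86 to 0.27 over B Stage II, -0.29 to 0.57 over T Stage I, -0.66 to 3.24 over T Stage III, -2.21 to 2.35 over T Stage IV and 0.0937 to 7.29 over early T. Also for irf4b: -1.76 to 2.06 in B Stage I and -8.30 to 2.69 in B Stage III over T Stage II, -1.98 to 0.25 between lck and rag2 lines and -0.13 to 2.35 between cd79b and cd79a lines. For xbp1 in Thymic B: 1.58 to 2.34 over T Stage I, 2.22 to 2.97 over T Stage IV, -0.24 to 0.36 over early T and -0.23 to 0.37 between lck and rag2 lines. Single libraries were not left out of the interaction terms.

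The number of genes called over the whole table was 2 to 1439 by comparison. DESeq2 called more in 21 of 21 (938 to 4616, among them 1447 against 4 for B Stage III over B Stage II). Fits on the compared groups alone moved the count by over 1.5 times in 14 of 21, the stricter filter in 2 and median-ratio scaling in 3. Median-ratio scaling shifted the median of all genes by -0.14 to 0.21 (log2), over 0.1 in 7 of 17 comparisons. bcl6ab and irf4b were at 0 in 8 and 15 libraries, some in groups whose other libraries held counts well over the limit of 3.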
